A study of Mus musculus with 10 samples.

Results

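The 67 cells described here were taken on day 12 of a chemical course from mouse embryonic fibroblasts (MEFs) towards cells like those of the extraembryonic endoderm (XEN-like cells), and they were not picked from colonies (d12). They are the cells named d12, without those named d12c, in which at least 4000 genes were detected. This rule kept 67 of 72 d12 cells, and 670 of 808 cells in the whole table. MEFs from mid-gestation ICR embryos were cultured with the cocktail C6FAE, which stands for CHIR99021 (an inhibitor of the kinase GSK3), RepSox (a TGF-β receptor inhibitor, listed by its catalogue number), Forskolin (an activator of adenylyl cyclase), AM580 (a retinoic acid receptor agonist) and EPZ004777 (an inhibitor of the histone methyltransferase DOT1L). The labels name C6FAE, while the study's methods list valproic acid (a histone deacetylase inhibitor) in the induction medium too. Single cells were picked by hand and their RNA was counted by UMIs (random tags, meant as 1 for each captured molecule). The groups used beside d12 are d8 (62 kept cells, unpicked, day 8 of the same course), d0 (72 kept cells, the MEFs before the cocktail) and, for a few genes, d12c (51 kept cells, picked from colonies on day 12) and d20 (38 kept cells, day 20). *Ereg* is also given at d1 (40 kept cells) and d2 (83 kept cells), days 1 and 2 of the same course. The number of embryos and cultures behind each group is not given in the sources used here.

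MEFs are mesenchymal cells that make collagens and other matrix proteins, and in injured tissue such cells are also a known source of chemokines, interleukin-6 family cytokines and prostaglandins. Epiregulin (*Ereg*), amphiregulin (*Areg*) and the heparin-binding EGF-like factor (*Hbegf*) are membrane-anchored ligands of the epidermal growth factor (EGF) receptor family that are shed from the cell surface. Transcription of many chemokine genes is driven by the factor NF-κB, and that of many cAMP-inducible genes by CREB, which binds the cAMP response element (CRE).

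The 67 cells had a median of 768565 UMIs, ranging from 49202 to 2102938, and a median of 7938 detected genes. ERCC spike-in RNAs, which are added to each lysate in equal amounts, made up 11.4% of their counts, against 5.71% at d8 and 3.04% at d0. Levels are given in CPM (counts per 1e6 UMIs of the cell), without spike-ins and without correction for gene length. The samples of the series are batches that the cell names do not show, so all cells were treated as 1 sample, no test was made and no p-value is given. The names end in running numbers from 1 to 72, and in none of the groups do they hold a cell barcode that could be compared. Mean log2(CPM + 1) differed by over 1 between the cells numbered 1 to 24, 25 to 48 and 49 to 72 for 994 of 5204 genes with a mean of at least 20 CPM, and by over 2 for 32 of them.

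Many d12 cells held a low level of genes that were high in few of them, which bears on shares of cells. Of 11 genes for which a single d12 cell held at least 80% of the summed CPM, 6 had a median above 0 in all 3 ranges of running numbers once that cell was left out, and between 22 and 65 of the 66 other cells had a UMI, with a median of 39. *Gkn2*, the gene with most such cells, codes for a secreted stomach protein and had 3969 CPM in the cell numbered 47, and the other cells had medians of 4.83, 6.05 and 6.57 CPM in the 3 ranges. At d8 and d0 its median was 0, and in the 21 kept d12c cells numbered 1 to 24 it was 7.42 CPM. The source of this level was not tested. Shares of cells with any UMI were therefore not read as expression, and cells are counted at 100 CPM or more, or at 20% or more of the group's mean.

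The genes that were given as markers of these cells were all above that level, in very different numbers of cells. *Ereg* had a mean of 1223 CPM at d12, with a median of 834, a lowest value of 28 and a highest of 5720, and 54 of 67 cells held at least 100 CPM. *Cxcl2*, which codes for a chemokine that attracts neutrophils, had a mean of 433 CPM, a median of 50.6 and values from 0 to 5352, with 24 cells at 100 CPM or more. *Serpinb2*, the gene of plasminogen activator inhibitor 2, had a mean of 125 CPM, a median of 20.7 and values from 6.74 to 1629, with 9 cells at 100 CPM. These levels show 1 gene that was high in most cells and others that were high in a minority. *Crhbp*, which codes for the binding protein of corticotropin-releasing hormone, had a mean of 103 CPM, a median of 5.06 and values from 0 to 1791, with 11 cells at 100 CPM. *Ccl20*, a ligand of the chemokine receptor CCR6, had a mean of 136 CPM, a median of 5.14 and values from 0 to 6714, with 5 cells at 100 CPM, and the cell numbered 50 held 73.7% of it. Only counting error is covered by the exact Poisson intervals of the summed UMIs, which were 66755 (66250 to 67263) for *Ereg*, 27387 (27064 to 27713) for *Cxcl2*, 10437 (10238 to 10639) for *Ccl20*, 7703 (7532 to 7877) for *Serpinb2* and 5191 (5051 to 5334) for *Crhbp*. Spike-ins at low levels varied between cells with 23.5 times the variance of Poisson counts, so these intervals are narrow.

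The same genes were near 0 at d8 and d20, and present in the d12c cells with low running numbers. At d8, *Serpinb2*, *Cxcl2*, *Ccl20* and *Crhbp* had no UMI in 62 cells, which allows a share of up to 4.84% of cells with a UMI, and *Ereg* had a mean of 1.62 CPM. *Ereg* was measured in the MEFs as well, with a mean of 15.9 CPM at d0. Under the cocktail its mean was 52.3 CPM on day 1 (d1) and 32.2 on day 2 (d2). No cell of these 3 groups exceeded 350 CPM. The d12c cells numbered 1 to 24 held *Ereg* at a median of 91.9 CPM, with 9 of 21 cells at 100 CPM or more, and 3 of them held at least 100 CPM of *Cxcl2*, 3 of *Serpinb2* and 3 of *Crhbp*. *Serpinb2* was higher in them than at d12, with a mean of 639 against 125 CPM and a median of 29.8 against 20.7. Its highest value there was 10400 CPM. Their means of *Ereg* (454), *Cxcl2* (51.4), *Crhbp* (74.4) and *Ccl20* (8.18) were below those at d12. Among the 30 d12c cells numbered 49 to 96 and the 38 d20 cells none reached 100 CPM of any of the 5 genes.

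**Figure D1:**
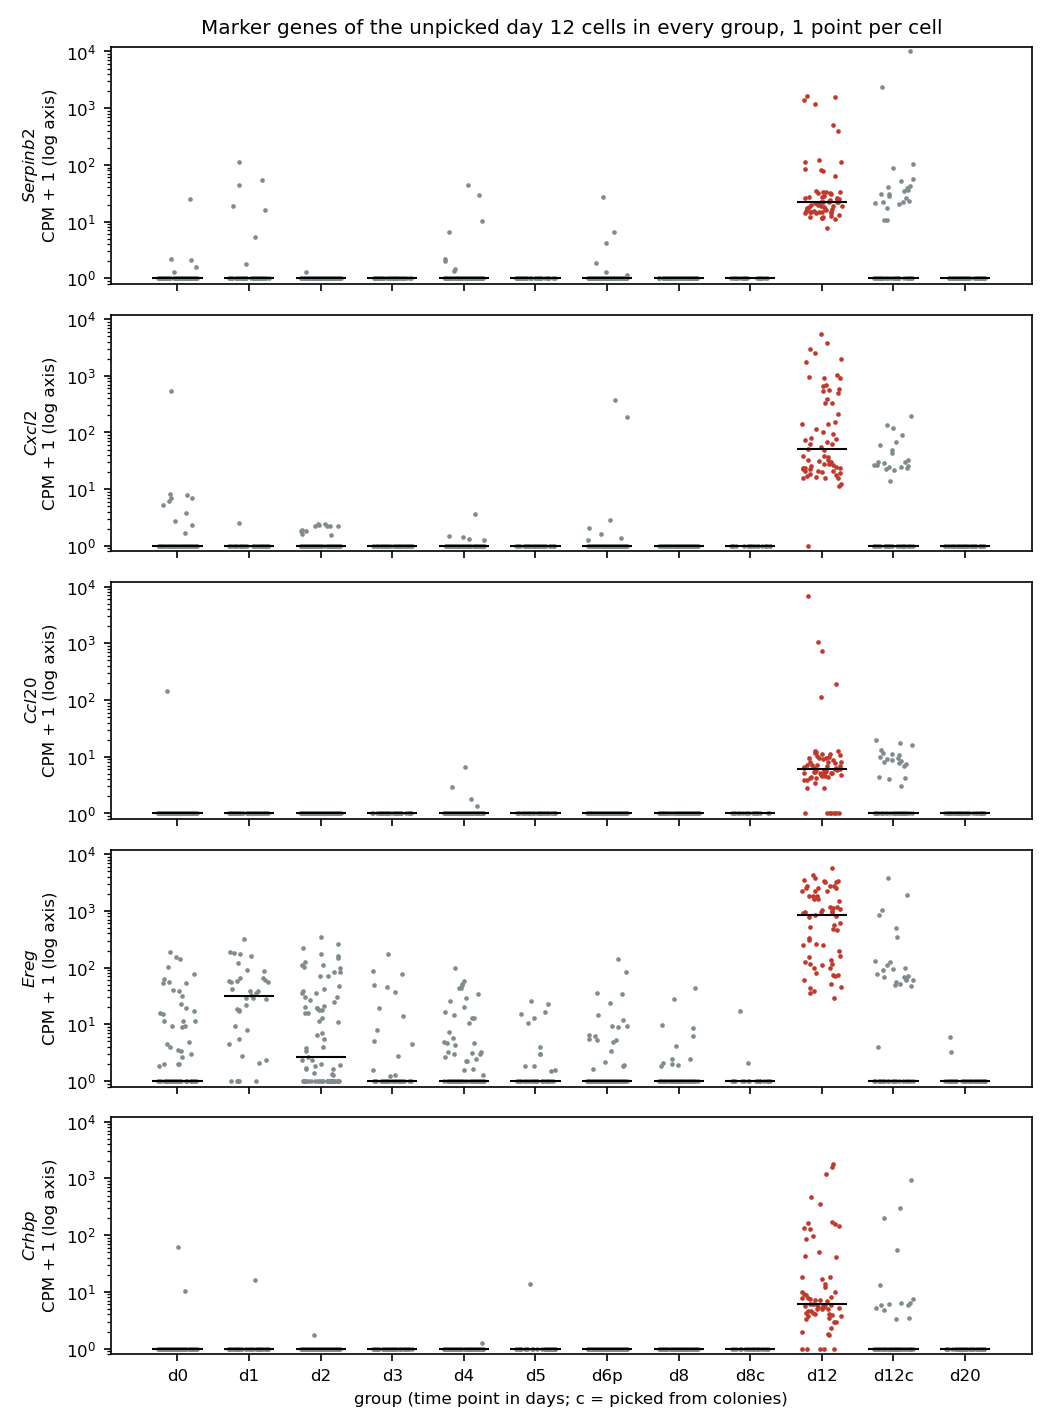
Level of *Serpinb2*, *Cxcl2*, *Ccl20*, *Ereg* and *Crhbp* (CPM + 1, log axis) in every kept cell of every group, 1 point per cell, with d12 in red and the median of each group as a black line. *Ereg* at d12 has a median of 834 CPM against 0 at d8, while the d12 medians of *Ccl20* and *Crhbp*, 5.14 and 5.06 CPM, lie in a narrow low band above which few cells stand.

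Seen cell by cell, 2 or 3 of the 5 genes were high together in some cells and more in none. None of them reached 100 CPM in 5 of the 67 cells, 1 did in 30 cells, 2 did in 23 and 3 did in 9, and no cell had 4 or 5. *Cxcl2* and *Ereg* were both at 100 CPM or more in 22 cells, which is 91.7% of the 24 cells with *Cxcl2* and 40.7% of the 54 cells with *Ereg*. Since *Ereg* reached that level in 54 of all 67 cells, a large overlap with it does not by itself show a link. The 24 cells with *Cxcl2* and the 9 with *Serpinb2* had no cell in common. This depends on the level of 100 CPM, as the cell numbered 52 held 111 CPM of *Serpinb2* and 99.8 CPM of *Cxcl2*. With so few cells it does not by itself show that the 2 genes exclude each other. *Crhbp* and *Serpinb2* shared 2 cells, and their Spearman coefficient over the 67 cells was 0.07. All coefficients over cells are descriptions, and the cells share 1 culture course, their depth differences and the low level described above.

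*Ereg*, *Cxcl2* and several of their relatives lie within 1 stretch of mouse chromosome 5. In the mm9 build (NCBIM37, GENCODE M1), on the + strand, *Cxcl5* is at chr5:91188325-91190651, *Cxcl3* at chr5:91215129-91217112, *Cxcl1* at chr5:91320267-91322141, *Cxcl2* at chr5:91332897-91334935, *Ereg* at chr5:91503643-91522675 and *Areg* at chr5:91568641-91577458. The other markers are on other chromosomes, with *Ccl20* at chr1:83113341-83115742 (+), *Serpinb2* at chr1:109408000-109432055 (+) and *Crhbp* at chr13:96201326-96214786 (-). All of these genes are annotated as protein-coding.

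The promoter windows of *Cxcl1* and *Cxcl2* are shown because both genes were high in overlapping sets of cells and both windows hold the letters bound by NF-κB, and that of *Areg* because it holds a full CRE. Each window runs from 250 bases before to 50 bases after the start of the RefSeq transcript. Capitals mark matches to the NF-κB letters (GGGA, any 2 bases, TTCC) on either strand in the first pair, where a match on each strand overlaps the other within 11 bases, and to TGACGTCA, which reads the same on both strands, in *Areg*.
Cxcl1 (GRCm38.p6, chr5:90890995-90891294, + strand): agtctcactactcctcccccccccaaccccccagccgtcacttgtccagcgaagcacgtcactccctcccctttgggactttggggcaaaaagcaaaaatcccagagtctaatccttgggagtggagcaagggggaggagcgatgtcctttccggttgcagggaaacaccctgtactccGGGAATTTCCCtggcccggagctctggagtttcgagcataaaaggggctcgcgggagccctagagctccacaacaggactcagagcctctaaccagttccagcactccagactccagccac
Cxcl2 (GRCm38.p6, chr5:90903649-90903948, + strand): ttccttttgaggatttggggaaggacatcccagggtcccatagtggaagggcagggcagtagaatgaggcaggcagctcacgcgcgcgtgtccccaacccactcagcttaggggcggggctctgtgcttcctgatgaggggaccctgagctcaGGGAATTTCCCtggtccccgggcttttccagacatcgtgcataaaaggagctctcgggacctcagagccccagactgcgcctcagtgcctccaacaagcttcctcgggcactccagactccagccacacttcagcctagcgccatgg
Areg (GRCm38.p6, chr5:91139349-91139648, + strand): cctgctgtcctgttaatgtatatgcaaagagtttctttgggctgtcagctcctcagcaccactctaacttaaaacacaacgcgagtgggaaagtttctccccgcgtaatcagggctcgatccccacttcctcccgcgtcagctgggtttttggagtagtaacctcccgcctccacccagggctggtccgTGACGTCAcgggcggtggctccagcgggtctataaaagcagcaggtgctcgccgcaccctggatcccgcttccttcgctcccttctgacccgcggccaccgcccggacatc
The marked bases lie 71 to 61 bases before the start in *Cxcl1*, 97 to 87 in *Cxcl2* and 61 to 54 in *Areg*. Of 32851 RefSeq promoter windows of this length, 1.47% held the NF-κB letters and 1.79% held TGACGTCA. Among the 20 chemokine genes listed below, 14 had a window, and 4 of these held the NF-κB letters (*Cxcl1*, *Cxcl2*, *Cxcl3* and *Cxcl10*). The table had no window for *Ereg*. A match describes the letters of the window, not binding in these cells.

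To describe how the cells varied, the squared coefficient of variation (CV) of each gene over the 67 cells was divided by the value fitted to the spike-ins of the same cells at the same mean count. A gene was called varying when this ratio was above 4, which means a CV more than 2 times that of spike-ins. In all, 710 of 5204 genes (13.6%) with a mean of at least 20 CPM were called, with a median ratio of 1.34 over all of them, and none of the 42 spike-ins had a ratio above 2.17. All 5 markers were called, with ratios of 98.7 for *Ccl20*, 37.5 for *Cxcl2*, 21 for *Ereg*, 20.4 for *Crhbp* and 18.9 for *Serpinb2*. The same measure was used for the gene lists that follow.

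**Figure D2:**
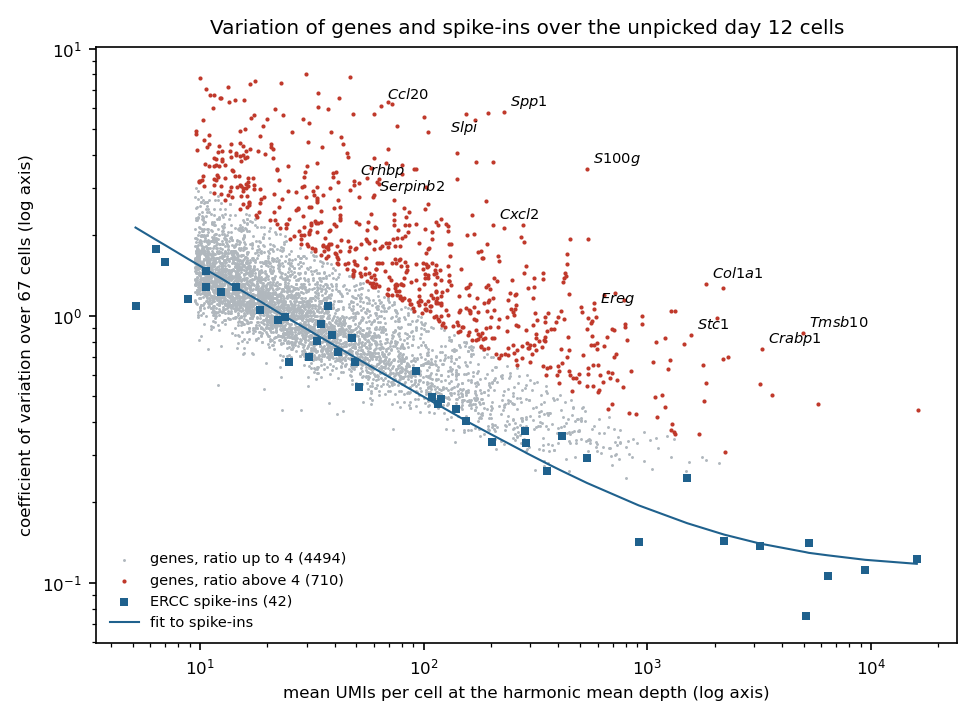
Coefficient of variation over the 67 d12 cells against the mean UMIs per cell, both on log axes, for 5204 genes (grey, or red where called varying), 42 ERCC spike-ins (blue squares) and the fit to the spike-ins (blue line). The 710 called genes lie above the spike-ins at every level, and *Spp1* (291), *Slpi* (244) and *S100g* (224) have the highest ratios to the line.

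Of 20 chemokine genes listed, 13 had a mean of at least 20 CPM and 11 of these were called varying, against 13.6% of all genes. *Ccl7* and *Ccl2*, which attract monocytes, had means of 909 and 586 CPM and medians of 169 and 60.2. *Ccl7* ranged from 48.4 to 5097 CPM, with 32 cells at 20% of its mean or more, and *Ccl2* from 8.99 to 7966, with 25 such cells. *Cxcl1*, another neutrophil attractant, had a mean of 483 CPM, a median of 148 and a highest value of 6529. *Cxcl5*, of the same family, had a mean of 271 CPM and a median of 40.7, with 21 cells at 100 CPM or more. All 4 genes thus had medians far below their means. A median of 4 of the 13 chemokines per cell reached 100 CPM, with a range from 0 to 9, and 20 cells had 5 or more.

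Several chemokine genes were correlated over the cells. The Spearman coefficient was 0.52 between *Cxcl1* and *Cxcl2*, 0.53 between *Cxcl2* and *Cxcl5* and 0.50 between *Cxcl1* and *Cxcl5*. Of the 24 cells with at least 100 CPM of *Cxcl2*, 22 also held 100 CPM of *Cxcl1*, beside 40 of all 67 cells. *Ccl2* and *Ccl7* gave 0.37. The stromal chemokines *Cxcl12* and *Cxcl14* had means of 404 and 595 CPM and a coefficient of 0.35. *Nfkbia*, the gene of the NF-κB inhibitor IκBα and itself an NF-κB target, gave 0.13 with *Cxcl2* and 0.18 with *Cxcl1*, and within the 3 ranges of running numbers -0.13, 0.44 and -0.11 with *Cxcl2* and -0.09, 0.43 and 0.01 with *Cxcl1*.

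The chemokine list was higher at d12 than at d8. With the difference taken between the means of log2(CPM + 1) and called past 1, 10 of 14 chemokines were higher at d12 and 0 lower, where 17.6% of 6118 genes were called higher and 17.4% lower. *Cxcl1* had a mean of 483 CPM at d12 and 41.2 at d8 (a log2 difference of 3.62), *Ccl2* 586 and 79.3 (2.63), and *Cxcl5* 271 and 83.5 (1.73). Genes were compared where their mean reached 20 CPM in either group, so a gene that passed at d12 alone had a low level in the other group by the filter. Of the 14 chemokines 6 passed at d12 alone and 7 in both groups, and 4 of these 7 were higher, beside 542 higher and 572 lower of 4457 genes that passed in both. Because the low level at d12 enters such a difference, it was also taken with a pseudocount of 10, which gave 5 of the 14 as higher, where 8.63% of all genes were called higher and 5.12% lower. Against d0, 11 of 13 were higher and 1 was lower, 7 of the 13 having passed at d12 alone, where 23.1% of 6119 genes were called higher and 20.6% lower, and 5 were higher and 1 lower with a pseudocount of 10 (12.1% and 10.5% of all genes). The whole-table counts against d0 shifted with the scaling, with 52.9% of called genes higher by CPM, 65.5% by TMMwsp and 68.4% by poscounts size factors, as the median difference of all genes was -0.08, 0.25 and 0.32. With CPM, lower calls outnumbered higher ones in cells with at least 6000 genes (1221 higher and 1593 lower) and after thinning to 50000 UMIs (1372 and 1534). *Ccl2* was the chemokine below its d0 level, with a mean of 1457 CPM there and a log2 difference of -1.82.

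Cytokine and acute-phase genes were mostly above d8. Of 22 compared, 18 were higher at d12 than at d8 and 0 lower, and 16 were higher with a pseudocount of 10, where 17.6% and 8.63% of all genes were. Of the 22, 13 passed the filter at d12 alone, *Il1rl1*, *Il11*, *Il6*, *Ptgs2*, *Plau* and *Plaur* among them, and of the 8 that passed in both groups 6 were higher. *Il1rl1*, the receptor of interleukin-33, had a mean of 528 CPM at d12 and 3.07 at d8, a log2 difference of 6.69. *Il11*, of the interleukin-6 family, had 231 CPM at d12 and 6.2 at d8, and *Il6* itself 133 and 4.23 CPM (3.43). The prostaglandin enzymes were higher too, with means of 256 and 12.2 CPM for *Ptgs2* (cyclooxygenase 2; 4.56) and of 927 and 111 CPM for *Ptges* (prostaglandin E synthase; 3.52). Genes of the urokinase system showed the same direction. *Plau* (urokinase) had 187 CPM at d12 and 9.52 at d8 (5.17), and *Plaur*, its receptor, 256 and 10.4 CPM (5.51). Against d0, 16 of 23 were higher and 2 lower at d12, where 23.1% and 20.6% of all genes were, and 11 of the 23 passed at d12 alone.

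Within d12 the members of this list differed in how widely they were spread. *Nfkbia* ranged from 73.5 to 4869 CPM around a median of 1022, and *Ier3*, an immediate early gene, from 40.4 to 2403 around a median of 762, with 58 and 62 cells at 20% of the mean or more. *Il6* ranged from 0 to 3414 CPM around a median of 13.6, with 30 such cells and 38.3% of the summed CPM in 1 cell. *Saa3*, an acute-phase gene, had a median of 15.6 CPM and 9551 CPM in the cell numbered 26, with 7 cells at 20% of its mean. So the list held genes of most cells and genes of few. Of 21 members with a mean of at least 20 CPM, 16 were called varying, where 13.6% of all genes were.

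The EGF family was represented by its ligands. *Areg* had a mean of 959 CPM, a median of 267, and values from 13.2 to 11303, with 45 cells at 100 CPM or more, and *Hbegf* a mean of 250, a median of 102 and values from 3.61 to 1652, with 34 such cells. *Ereg*, *Areg* and *Hbegf* all reached 100 CPM in 20 cells, 2 of them did in 32 cells, 1 did in 9 and none did in 6. At d8 the means of *Areg* and *Hbegf* were 0.942 and 1.64 CPM, giving log2 differences of 7.69 and 5.66 beside 8.63 for *Ereg*. *Hbegf* was also measured in the MEFs, with 134 CPM at d0. The receptor *Egfr* had a mean of 41 CPM at d12 and 12.5 at d8. Of 12 members 5 passed the filter on low levels, and these did so at d12 alone in the comparison with d8, as did 4 of 5 in that with d0, so their direction was set by the filter and no count is read from it.

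*Ereg* had close companions, by the genes with the highest Spearman coefficients to it among the 5204. They were *Stc1* (0.75; stanniocalcin 1, a secreted glycoprotein), *Ptgs2* (0.73), *Pitpnc1* (0.68; a phosphatidylinositol transfer protein), *Kcnk10* (0.68; a potassium channel) and *Cpxm1* (0.68). *Ereg* with *Stc1* gave 0.82, 0.78 and 0.65 within the 3 ranges of running numbers, while the level of *Ereg* itself differed between them, with medians of 1595, 827 and 275 CPM. *Areg*, its neighbour on chromosome 5, gave 0.42 with *Ereg*, and *Hbegf* 0.22. For *Cxcl2* the highest coefficients were those to *Cxcl5*, *Kcnk10* (0.53) and *Cxcl1*. For *Serpinb2*, *Ccl20* and *Crhbp*, whose levels in most cells are in the low band, the highest coefficients were 0.48 (*Tmub2*), 0.44 (*Parm1*) and 0.50 (*Vim*).

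Growth factors and their antagonists differed in both directions from d8. *Stc1* had a mean of 3310 CPM, a median of 2524 and values from 75.7 to 11610, against a mean of 459 at d8 and 9.42 at d0. *Inhba*, which codes for the βA subunit of activin A, had a mean of 2534 CPM, a median of 2209 and values from 40.4 to 8093, against 117 at d8 and 444 at d0. *Fst*, the gene of the activin antagonist follistatin, had 1227 CPM at d12, 47.3 at d8 and 325 at d0. Activin and its antagonist were thus both above d8, with log2 differences of 5.26 and 5.94. *Bmp2*, a bone morphogenetic protein, had 138 CPM at d12 and 14.5 at d8 (3.16). *Tgfb2* went the other way, with 497 CPM at d12 and 858 at d8 (-1.07), though it was 50.1 CPM at d0. Of the 21 members compared, 11 were higher and 2 lower than at d8, and 8 and 0 with a pseudocount of 10, where 17.6% and 17.4%, and 8.63% and 5.12%, of all genes were. In both groups 16 of the 21 passed the filter, of which 8 were higher and 1 lower.

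Secreted peptides and the binding proteins of insulin-like growth factors divided. *Adm*, the vasodilator peptide adrenomedullin, had a mean of 2701 CPM and a lowest value of 173, against 417 at d8 and 141 at d0. *Penk*, the enkephalin precursor, had a mean of 1145 CPM, a median of 246 and a highest value of 14186, and its mean at d8 was 1147. *Igfbp4* had 594 CPM at d12 and 262 at d8, whereas *Igfbp5* had 129 at d12 and 803 at d8 (-3.17). In this list 7 of 14 members compared were higher and 3 lower than at d8 (17.6% and 17.4% of all genes), and 11 of 13 were higher than at d0 (23.1%), of which 13 members 5 passed the filter at d12 alone.

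**Figure D3:**
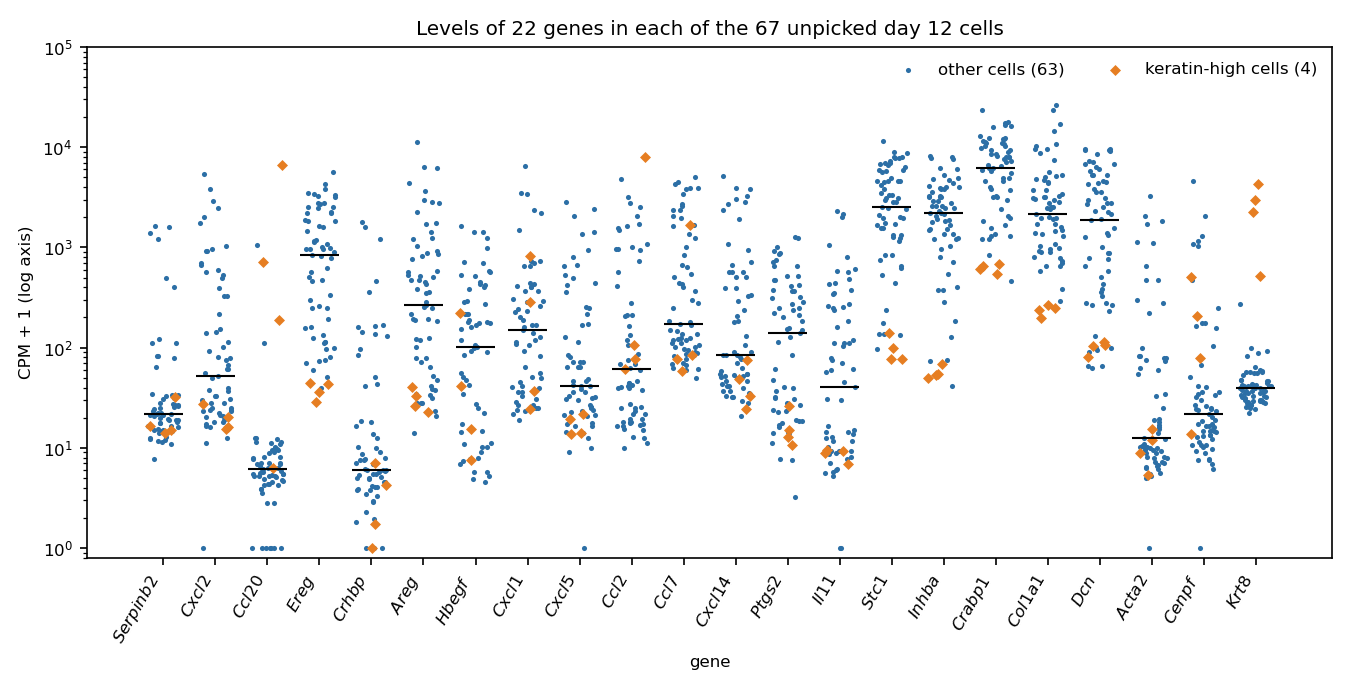
Level (CPM + 1, log axis) of 22 genes in each of the 67 d12 cells, with the median of each gene as a black line, 63 cells as blue points and the 4 keratin-high cells described below as orange diamonds. *Stc1*, *Inhba* and *Crabp1* are high in nearly all blue cells, while *Ccl20*, *Crhbp* and *Serpinb2* are high in few. In *Ereg*, *Stc1*, *Inhba*, *Crabp1* and *Col1a1* the diamonds lie together near the bottom of the range.

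The fibroblast character of the cells was checked with 16 marker genes, all of which had a mean of at least 20 CPM. *Prrx1*, a mesenchymal transcription factor, had a median of 370 CPM, with 57 cells at 100 CPM or more. *Twist2* had a median of 1418 CPM in the 63 cells other than the keratin-high cells. *Col1a1*, a chain of type I collagen, had a median of 2173 CPM, and *Dcn*, the small proteoglycan decorin, one of 1874. *Osr1*, a transcription factor of embryonic mesenchyme, was low in most cells, with a median of 0 against 16.2 at d8, and 4 cells at 100 CPM. Its mean was 26.5 CPM in the same 63 cells, against means of 126 CPM at d8 and 140 at d0. Compared with d8, 6 of the 16 were higher and 6 lower, where 17.6% and 17.4% of all genes were.

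Markers of other cell types were few. Of 10 macrophage genes 5 had no UMI in any d12 cell and only *Cd14* had a mean of at least 20 CPM, and the summed level of the list ran from 1.39 to 521 CPM with a median of 20. Of 7 endothelial genes only *Kdr* passed 20 CPM (36.2), and no skeletal muscle or neural and glial gene did. Epithelial keratins were the exception.

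Against the label, 4 cells (numbered 6, 23, 47 and 50) had keratins in place of fibroblast genes. These cells were set apart after their values had been seen, by the difference between the mean log2(CPM + 1) of the XEN genes and that of the fibroblast genes. It was -2.10 or more in them, at most -3.97 in the other 63 cells, and above 0 in 1 cell (number 23). *Krt8* was 521, 2239, 2963 and 4271 CPM in these 4 cells and between 21.3 and 269 in the others, with a median of 36. *Sox17*, a transcription factor of the extraembryonic endoderm, was 188, 1582, 1429 and 443 CPM, against a median of 5.14 and a highest value of 356 in the others. Other genes of that lineage were not high throughout, with *Gata4* at 8.34, 425, 217 and 341 CPM, *Foxa2* at 2.08, 3.49, 148 and 61.7, and *Dab2* at 93.8, 159, 2.15 and 0. *Gata6* was 2.08, 0, 1.08 and 1.47 CPM, below the median of the others (2.82), and *Sall4* was 95 CPM in the cell numbered 23 and 0 in the other 3. *Epcam*, an epithelial adhesion molecule, was 6.25, 277, 1557 and 667 CPM, against at most 20.3. *Col1a1* was 263, 250, 196 and 235 CPM, near the lowest value of the others (236) and below their median of 2472. Of the 5 cells with at least 100 CPM of *Ccl20*, 3 were keratin-high cells (188, 718 and 6714 CPM), and the highest *Ccl2* level (7966 CPM) was that of the keratin-high cell numbered 6.

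**Figure D4:**
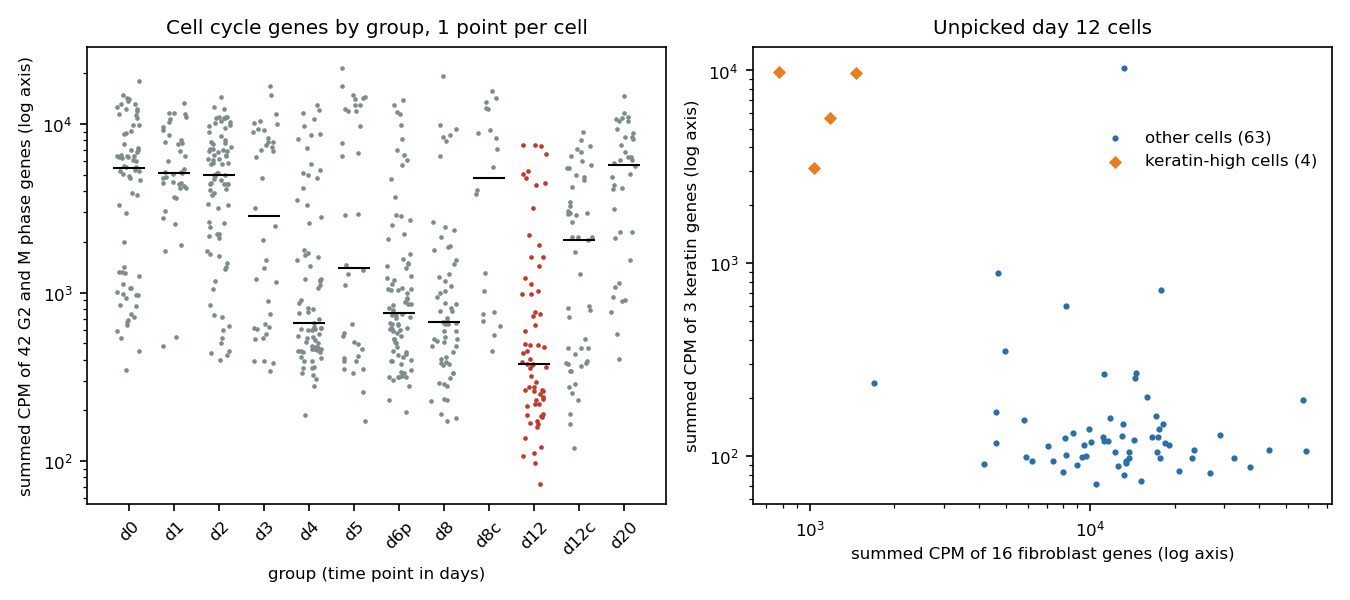
Left, summed CPM of 42 G2 and M phase genes (log axis) in every kept cell by group, with d12 in red and medians as black lines, which stand at 5451 CPM at d0, 665 at d8 and 375 at d12. Right, summed CPM of *Krt8*, *Krt18* and *Krt19* against that of 16 fibroblast genes (both log axes) in the 67 d12 cells, where the 4 keratin-high cells (orange) lie at the upper left and 1 other cell, number 26 with 10228 CPM of *Krt19*, is high in keratins beside fibroblast genes.

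The keratin-high cells also give the level at which most genes of the other d12 cells are found in cells low in them. Some genes were not low in all 4 cells, with up to 815 CPM of *Cxcl1*, 404 of *Krt23* and 241 of *Pdgfra*. The upper ends of the percentages below are therefore not read as a low level. *Ereg* was 43.8, 42.7, 28 and 35.3 CPM in the 4 cells, *Inhba* 54.2, 67.1, 52.7 and 48.5, and *Crabp1* 677, 601, 650 and 542. For the 15 genes that were highest at d12 against every other group, the median of the 4 cells was 1.81% to 32.6% of the mean of the other 63, with a median of 6.16%. It was 2.42% to 31.5%, with a median of 5.48%, for the 16 fibroblast genes. The 4 cells were set apart in part by these 16 genes, so a low level of them follows from that choice. The lowest value of *Ereg* among the 63 cells, 38.4 CPM, was within the range of *Ereg* in the 4 cells.

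Those 15 genes were chosen by the margin between d12 and the next highest group in mean log2(CPM + 1), so their height at d12 is a description. *Ereg* led with a margin of 4.79 over d1. It was followed by *Kcnk10* (4.75), *Rgcc* (4.37; a regulator of the cell cycle), *Thbd* (4.36; the anticoagulant receptor thrombomodulin), *Cxcl2* (4.25), *Ptgir* (4.08; the prostacyclin receptor) and *P2ry2* (4.03; a receptor for extracellular nucleotides). *Stc1* (3.79), *Rbp4* (3.74; the plasma retinol carrier), *Acpp* (3.71), *Cxcl1* (3.44), *Plau* (3.42), *Phlda1* (3.38) and *Krt23* (3.32) were also among them. *Thbd* had a mean of 1192 CPM and a lowest value of 66.6, near its 66.9 to 110 CPM in the keratin-high cells, and *Ptgir* a mean of 146 with 30 cells at 100 CPM. For 8 of these genes the next group was d12c. All d12c cells were taken as 1 group in this ranking, and those numbered 1 to 24 held more of these genes than those numbered 49 to 96. *Rbp4* had a mean of 586 CPM in the former against 547 at d12, with medians of 99.1 and 284. The other genes had lower means there than at d12, the closest to it including *Krt23* (281 against 311) and *Thbd* (907 against 1192). The median of *Krt23* was higher there, with 61 against 49.9 CPM.

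Collagen and other matrix genes lay on both sides of their d8 levels. Of 17 collagen genes compared, 3 were higher and 5 lower than at d8, where 17.6% and 17.4% of all genes were. Against d0, 11 of 16 were higher and 1 lower, where 23.1% and 20.6% of all genes were. *Col1a1* had means of 3856 CPM at d12, 5267 at d8 and 1237 at d0. *Col3a1* had 1669, 2732 and 393 CPM in the same order, and *Col6a3* 160, 407 and 72.4. The basement membrane collagen *Col4a2* was the clearest of those above d8, with 177 CPM at d12 and 50 at d8 (2.43). Among the 27 other matrix genes compared with d8, 9 were higher and 6 lower, also beside 17.6% and 17.4%. *Tnc*, tenascin C of healing tissue, had 735 CPM at d12 and 198 at d8 (2.11), and *Thbs1*, thrombospondin 1, 1073 and 374 (1.81). *Lum* had 721 and 1596 CPM (-1.65) and *Fbn2* 33.7 and 153 (-2.56).

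Matrix genes varied between cells as well. *Col1a1* ran from 196 to 26278 CPM, with a ratio to the spike-ins of 67.5, and *Dcn* from 61.2 to 9527 CPM. *Col1a1* and *Col1a2*, which form type I collagen together, had a coefficient of 0.82, *Col1a1* and *Col3a1* one of 0.71, and *Col1a1* and *Dcn* one of 0.31, which was 0.60, 0.46 and 0.00 within the 3 ranges of running numbers. *Spp1*, the phosphoprotein osteopontin, had a median of 19 CPM and 21752 CPM in the cell numbered 27, which held 67.2% of it. Of 27 other matrix genes 16 were called varying, and of 15 collagen genes 9, where 13.6% of all genes were.

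Proteases, their inhibitors and contractile genes completed the matrix group. *Timp3*, an inhibitor of metalloproteinases, had a mean of 1359 CPM at d12 against 154 at d8 (3.49), and *Timp1* 432 against 120 (1.88). *Mmp10*, stromelysin 2, had a median of 5.63 CPM and a highest value of 1709, with 10 cells at 100 CPM. *Acta2*, smooth muscle actin and a marker of myofibroblasts, had a mean of 219 CPM and a median of 11.5 at d12, with 12 cells at 100 CPM, against means of 676 at d8 and 3668 at d0. *Tagln*, another smooth muscle gene, had 146, 126 and 819 CPM in the same order. *Cald1*, caldesmon, had 3807 CPM at d12, 2775 at d8 and 2835 at d0. Of 14 contractile genes 7 were lower and 1 higher than at d0, where 20.6% and 23.1% of all genes were. Against d8, 2 of 13 were lower and 3 higher, near the 17.4% and 17.6% of all genes.

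Genes of the cell cycle were low in most d12 cells and high in a few. The summed CPM of 42 G2 and M phase genes had a median of 375 at d12, from 73.4 to 7478, and 18 of 67 cells were at 1000 or more. At d8 the median was 665 with 21 of 62 cells at 1000 or more, and at d0 it was 5451 with 57 of 72 cells. The sum of 34 S phase genes had medians of 413, 609 and 2388 CPM in the same order. Of the 42 genes 38 were compared with d0, of which 25 passed the filter at d0 alone and were therefore low at d12 by the filter. The other 13 passed in both groups, and all 13 were lower at d12, where 706 of 4266 genes that passed in both were. Against d8, 15 of 23 were lower, where 17.4% of all genes were, but 10 of the 23 passed at d8 alone. Of the 13 that passed in both groups 8 were lower, beside 572 of 4457 such genes. With a pseudocount of 10, 0 of the 23 were lower, where 5.12% of all genes were.

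The cells with most cell cycle RNA included all 4 keratin-high cells, which were among the 10 cells with the highest G2 and M sums (7468, 7362, 5088 and 3172 CPM). The highest sum, 7478 CPM, was that of the cell numbered 26. *Cenpf*, a kinetochore protein, had a median of 21 CPM and a highest value of 4606, with 15 cells at 100 CPM. *Cdkn1a*, which codes for the cell cycle inhibitor p21, had a median of 2290 CPM, and 65 of 67 cells held at least 100 CPM. It was 29.6 CPM in the keratin-high cell numbered 23 and 6516 CPM in the cell numbered 44, which had a G2 and M sum of 6676. The coefficient of *Cdkn1a* with *Cenpf* was 0.01.

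List scores, the mean log2(CPM + 1) of the members with a mean of at least 20 CPM, were compared over the 67 cells. The score of cytokine and acute-phase genes had a coefficient of 0.71 with that of the EGF family, 0.70 with growth factors, 0.65 with the other matrix genes and 0.51 with chemokines, the last of which was 0.33 in the cells numbered 1 to 24. Collagens and other matrix genes gave 0.70. The S phase score ran the other way, with -0.55 against collagens, -0.46 against other matrix genes and -0.44 against the EGF family. The G2 and M phase score gave weaker values with the same lists, -0.21, -0.12 and -0.21. Without the 4 keratin-high cells the S phase values were -0.46, -0.36 and -0.35. Those of G2 and M phase were then -0.07, 0.05 and -0.08, and that of cytokines with the EGF family was 0.66. Depth went with some scores, with coefficients of 0.35 for cytokines, 0.34 for chemokines, 0.33 for growth factors and 0.09 for the EGF family, and its part in the values was not tested. Thinned to 50000 UMIs, the 66 cells deep enough gave 0.62 for cytokines with the EGF family and -0.53 for collagens with S phase.

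**Figure D5:**
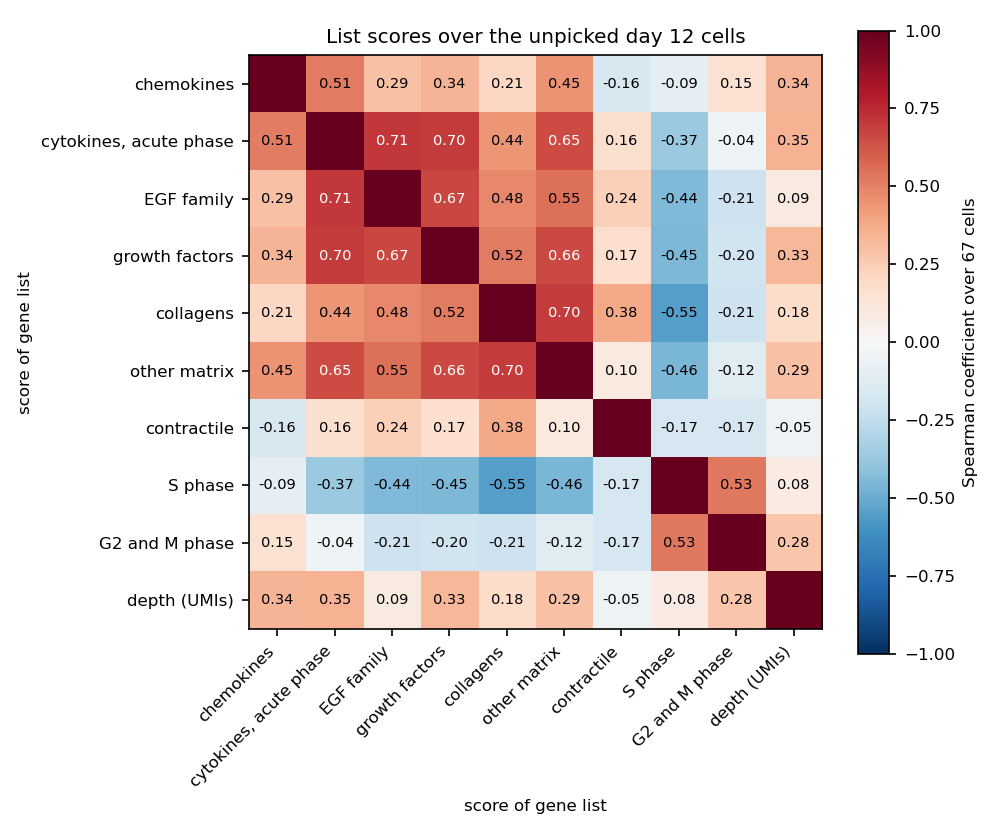
Spearman coefficients over the 67 d12 cells between the scores of 9 gene lists and the depth of the cell, coloured from -1 (blue) to 1 (red). The cytokine, EGF family, growth factor and other matrix scores form a red block (0.55 to 0.71), and the S phase score is blue against collagens (-0.55).

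Targets of the agents in the cocktail were measured from lists of known response genes. Of 9 cAMP and CREB response genes compared with d0, 4 passed the filter at d12 alone. The other 5, which passed in both groups, were all higher at d12, where 667 of 4266 genes that passed in both were. *Crem*, a cAMP-induced repressor, had means of 241 CPM at d12, 57.6 at d8 and 21.4 at d0. Of 14 retinoic acid genes, 13 were higher than at d0 (23.1% of all genes), 9 of the 14 having passed at d12 alone, and 3 were higher and 2 lower than at d8, near the 17.6% and 17.4% of all genes. *Crabp1*, a retinoic acid-binding protein, had a mean of 6900 CPM at d12, 4379 at d8 and 666 at d0. *Cyp26a1*, the enzyme that clears retinoic acid, had a median of 5.55 CPM and 8 cells at 100 CPM or more, with a highest value of 1606. Wnt targets were lower than at d8 for 6 of 12 genes and higher for 2, where 17.4% and 17.6% of all genes were, with *Axin2* at 62.6, 105 and 5.39 CPM at d12, d8 and d0. *Notum* and *Myc* were the pair above d8, with log2 differences of 1.56 and 4.23.

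Of 7 compared genes of the NRF2 and metallothionein list, all were higher at d12 than at d8, and 6 with a pseudocount of 10, where 17.6% and 8.63% of all genes were. In both groups 5 of these passed the filter. *Mt1* and *Mt2*, the metal-binding metallothioneins, had means of 3097 and 2323 CPM at d12, 264 and 99.2 at d8, and a coefficient over d12 cells of 0.87. *Hmox1*, heme oxygenase 1, had 605 CPM at d12 and 45.3 at d8 (5.13). Of 7 ERK feedback genes, which are induced by growth factor signalling, 6 were higher than at d8 with either pseudocount, and 3 of the 4 that passed in both groups were. *Phlda1* had 1477 CPM at d12 and 57.3 at d8 (5.12), and *Spry4* 162 and 22.6 (3.46). Of 12 genes of glycolysis and hypoxia, 6 were higher than at d8 and 0 lower, where 17.6% and 17.4% of all genes were. In both groups 10 of the 12 passed the filter, of which 4 were higher. The glucose transporter *Slc2a1* had 349 CPM at d12 and 18.2 at d8 (4.76). Within d12, 1 of 7 ERK feedback genes and 5 of 12 glycolysis and hypoxia genes were called varying, where 13.6% of all genes were.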

How the data were processed

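Single cells were lysed with added ERCC spike-in RNA and sequenced from barcoded, UMI-tagged libraries. The deposited values are counts of UMIs per gene and cell, made by the authors. By their account, reads were split by barcode, trimmed, aligned to the mouse mm9 transcriptome and reduced to distinct UMIs. Low-level spike-ins varied with 23.5 times the variance of Poisson counts, and whether each count stands for 1 captured molecule was not tested. The aligner is not given in the sources used here. The table had 23201 gene rows, 92 spike-ins and 808 cells. Gene names turned into dates by a spreadsheet (26) were left as they were, and 4 rows with 2 repeated names were left out.

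The filter of 4000 detected genes was applied to every group, spike-ins were left out, and UMIs were scaled to CPM. The 10 samples of the series are batches that carry no group label, and cell names give a time point and a running number only. All cells therefore count as 1 sample, and differences between groups are given without a test. Variation was read against CV squared = a0 + a1/mean UMIs (0.0124 and 23.5), fitted to 42 spike-ins in the d12 cells. Groups were compared by the difference of mean log2(CPM + 1), called past 1, for genes with a mean of at least 20 CPM in either group. No doublet caller was run, since cells were picked by hand. The variation measure and the differences between groups were tested on simulated data, and the other steps were not. Python 3.11.15, numpy 2.4.6, pandas 2.3.3 and scipy 1.17.1 were used, with edgeR 4.0.16 and DESeq2 1.42.0 (R 4.3.3) for alternative scaling factors of these counts. Promoter windows and RefSeq names are of GRCm38.p6, while gene positions are of mm9.

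The d12 cells, their markers and the 27 gene lists were chosen with earlier results of these data known. Genes were named by their mean level or their ratio to the spike-ins within a list, by the margin over other groups, and by correlation with a marker. Others, chosen after their values were seen, are named for their difference from d8 or d0. A result for 1 gene that these rules name is not reported here. The keratin-high cells, the ranges of running numbers, the levels of 100 CPM and 20% of the mean, and the list counts with a pseudocount of 10 were also chosen after seeing the data. Tried as alternatives were other cell filters, scalings, depths, pseudocounts, thresholds, spike-in fits and coefficients. Intervals and limits for a count of 0 (3 counts) cover counting error only.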

Additional observations from a re-analysis of the deposited data

How the results depend on the processing

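The number of genes varying over the spike-ins, 710, was 265 with no filter on cells, 1068 with poscounts size factors, 473 among genes with at least 100 CPM and 319 at a ratio above 9, and within 1.5 times of 710 under the other 10 alternatives. Genes higher and lower than at d8 (1075 and 1064) were 528 and 313 with a pseudocount of 10 and 453 and 184 past a difference of 2. Against d0 (1414 and 1261) they were 739 and 641, and 669 and 393. The split of calls against d0, 1414 higher and 1261 lower by CPM, was 1825 and 960 with TMMwsp and 2000 and 926 with poscounts factors, and turned to 1221 and 1593 with at least 6000 genes and 1372 and 1534 thinned. Against d8 it was 984 and 1307, 1114 and 1246 thinned, and 1215 and 1281 with poscounts factors. The coefficient of collagens with S phase was -0.36 with no filter on cells, that of collagens with other matrix genes 0.81 with poscounts factors, and that of cytokines with the EGF family 0.81 within the cells numbered 49 to 72. As CPM of the summed UMIs, in place of the mean over cells, the levels were 1180 for *Ereg*, 484 for *Cxcl2*, 184 for *Ccl20*, 136 for *Serpinb2* and 91.7 for *Crhbp*. The 4 list coefficients kept their sign under the alternatives run, and the cause of these shifts was not tested.

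No paired analysis was possible because no result comes from a test and the cell names carry no replicate number. With 1 sample, the spread between cultures is unknown. Genes near the low level in d12 cells cannot be placed as present or absent in single cells, and differences from groups at 0 depend on the pseudocount and are no bound.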

Other observations

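The 20 genes with the highest ratios to the spike-ins were mostly genes of single cells, and few belong to the lists above. In 13 of them 1 cell held at least 50% of the summed CPM, and 10 different cells were the highest. *Spp1*, *Ibsp*, *Calb1* and *S100g*, which code for bone matrix and calcium-binding proteins, were among them, with *Ibsp* highest in the cell numbered 31 (75.8% of its sum) and *Calb1* in the cell numbered 27 (95.3%). *Cryaa*, a lens crystallin, was highest in the cell numbered 68 (68.7%) and *Slpi*, a protease inhibitor of mucosal surfaces, in the cell numbered 32 (66.8%). *Nefh*, a neurofilament gene, had 98% of its sum in the cell numbered 27. The keratin-high cells were the highest for 6 of the 20 genes. These genes were chosen for their variation, so the values are a description.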
